A study of Mus musculus with 6 samples.

Results

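Angptl4, Angptl6, Fgl1, Lect2, Ahsg and Fetub were taken by symbol from the gene tables of 6 mouse liver libraries, and all 6 genes were found among 18443 genes listed in at least 1 library. They encode plasma proteins made by hepatocytes, and they were followed here through a diet model of steatohepatitis and a toxin model of liver fibrosis, each with and without JT003. JT003 is a short peptide built on the active stretch of adiponectin that activates both adiponectin receptors, AdipoR1 and AdipoR2. Liver RNA came from male C57BL/6 mice aged 6 to 8 weeks at the start, and each condition was sequenced as 1 library.

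In the diet model, CD livers came from mice on a chow diet, HFD livers from mice fed a high-fat diet for 16 weeks, and HFD+JT003 livers from mice on that diet that were given JT003 for 4 weeks. In the fibrosis model, Oil livers came from mice injected with corn oil, CCl4 livers from mice injected with 20% carbon tetrachloride in corn oil at 5 ml/kg every 3 days for 6 weeks, and CCl4+JT003 livers from mice given the same CCl4 course and, for 3 weeks, JT003. JT003 was injected daily into the peritoneum at 0.5 mg/kg. The groups held 6 mice, which were fasted for 8 h before the livers were taken. The sources used here do not give whether a library held RNA of 1 mouse or a pool of mice, nor the hour of sampling. With 1 library per condition, no spread between animals could be estimated, so no difference below was tested between conditions.

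A hepatokine is a protein that the liver secretes and that acts on other tissues. Most angiopoietin-like proteins carry a coiled-coil stretch and a fibrinogen-like domain, and ANGPTL8 lacks the latter. ANGPTL4 restrains lipoprotein lipase and so steers where triglyceride is taken up, and its gene is a classical target of PPAR-alpha and of glucocorticoids in fasting. ANGPTL6, also called angiopoietin-related growth factor, promotes vessel growth and opposes obesity in mice. FGL1, or hepassocin, is a fibrinogen relative that acts on hepatocyte growth and binds the T cell receptor LAG3, and its gene answers interleukin-6 in the acute phase. LECT2 is a chemotactic hepatokine of the obese liver, and its gene is a direct target of beta-catenin in hepatocytes. Ahsg and Fetub encode the fetuins A and B, cystatin-like plasma proteins: fetuin-A inhibits the insulin receptor and keeps calcium phosphate soluble, and fetuin-B inhibits the protease that hardens the egg coat.

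RefSeq places Angptl4 on chromosome 17, Angptl6 on chromosome 9, Fgl1 on chromosome 8, Lect2 on chromosome 13, and Ahsg and Fetub side by side on chromosome 16. The RefSeq promoter table (GRCm38.p6) held 4 of the 6 genes, Angptl6, Lect2, Ahsg and Fetub. The 250 bases before the start site are shown for Lect2, the gene with the widest range over the libraries, and for the neighbouring fetuin genes, which lie next to each other and differed in opposite directions between the CCl4 and CCl4+JT003 livers. Capitals mark letters matching any of 7 short motifs searched on both strands: TATAAA (the TATA box), CTTTGAT (bound by the TCF/LEF partners of beta-catenin) with its variant CTTTGAA, the nuclear receptor letters AGGTCA, the HNF1 letters GTTAAT, TTGCNNAA (C/EBP) and TTCNNNGAA (STAT).

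Lect2 (chr13:56548539-56548788, minus strand): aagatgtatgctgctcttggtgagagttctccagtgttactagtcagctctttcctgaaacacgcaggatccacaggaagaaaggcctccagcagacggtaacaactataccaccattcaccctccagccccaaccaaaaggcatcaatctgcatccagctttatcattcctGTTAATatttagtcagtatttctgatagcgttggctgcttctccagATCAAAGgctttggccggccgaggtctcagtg

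Ahsg (chr16:22891765-22892014, plus strand): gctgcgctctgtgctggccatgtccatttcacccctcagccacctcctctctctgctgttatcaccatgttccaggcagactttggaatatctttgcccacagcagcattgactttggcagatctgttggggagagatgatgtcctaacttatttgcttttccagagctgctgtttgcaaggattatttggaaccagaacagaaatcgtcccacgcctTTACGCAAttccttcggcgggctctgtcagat

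Fetub (chr16:22918132-22918381, plus strand, the first of its 2 starts): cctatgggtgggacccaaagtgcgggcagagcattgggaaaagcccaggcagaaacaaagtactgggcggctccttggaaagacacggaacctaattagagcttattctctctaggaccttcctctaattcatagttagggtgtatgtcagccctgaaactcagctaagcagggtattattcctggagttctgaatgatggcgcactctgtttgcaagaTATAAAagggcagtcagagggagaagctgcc

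The Lect2 window held CTTTGAT at positions -32 to -26 from the start, where many genes have a TATA box, and GTTAAT at -78 to -73. CTTTGAT lay on the strand opposite to the one shown, which reads ATCAAAG there. CTTTGAT was present in 3.21% of the 32851 promoter windows of this length and GTTAAT in 6.43%. Ahsg held the C/EBP letters at -32 to -25, as did 9.56% of windows, and Fetub held TATAAA at -31 to -26, as did 12.4%. The second Fetub start and the Angptl6 window held none of the 7 motifs, which says only that these letters are not in those windows.

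The libraries held 19374236 to 20184539 counts each, and hepatocyte markers dominated all of them (summed FPKM of 7 markers 44900 to 55500). Levels are given as FPKM, the fragments of a gene per transcript length and library depth, so that genes can be compared with each other. Differences between libraries are given as log2 ratios of counts scaled by TMM (trimmed mean of M-values), with a 95% interval that covers counting error only. A gene was called past 2-fold where its log2 ratio was at least 1 in size. Other cell types differed between libraries: the summed FPKM of 6 macrophage markers was 108 in CD and 23.4 in Oil, and that of 5 cholangiocyte markers was 26.7 in Oil and 104 in CCl4. All 10 genes of a mitosis list were past 2-fold higher in CCl4 than in Oil, and past 2-fold lower in CCl4+JT003 than in CCl4. In bulk liver, fewer cells of a type and less RNA per cell cannot be told apart.

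The 6 genes differed widely in abundance. Ahsg was the most abundant in all libraries, between 3984 and 7390.1 FPKM, and ranked 6th to 21st among all genes, with 0.605% to 1.12% of all counts. Fgl1 lay between 382 and 768 FPKM and Fetub between 325 and 702 FPKM. Angptl4 lay between 72.8 and 148 FPKM, and Lect2 between 30.3 and 108 FPKM. Angptl6 was the lowest by far, between 2.63 and 7.03 FPKM, with 83 to 217 counts a library. The widest range on scaled counts belonged to Lect2, whose highest library (HFD+JT003) was 3.25-fold above its lowest (CD), and the narrowest to Ahsg, at 1.75-fold (CCl4 over HFD).

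**Figure D1:**
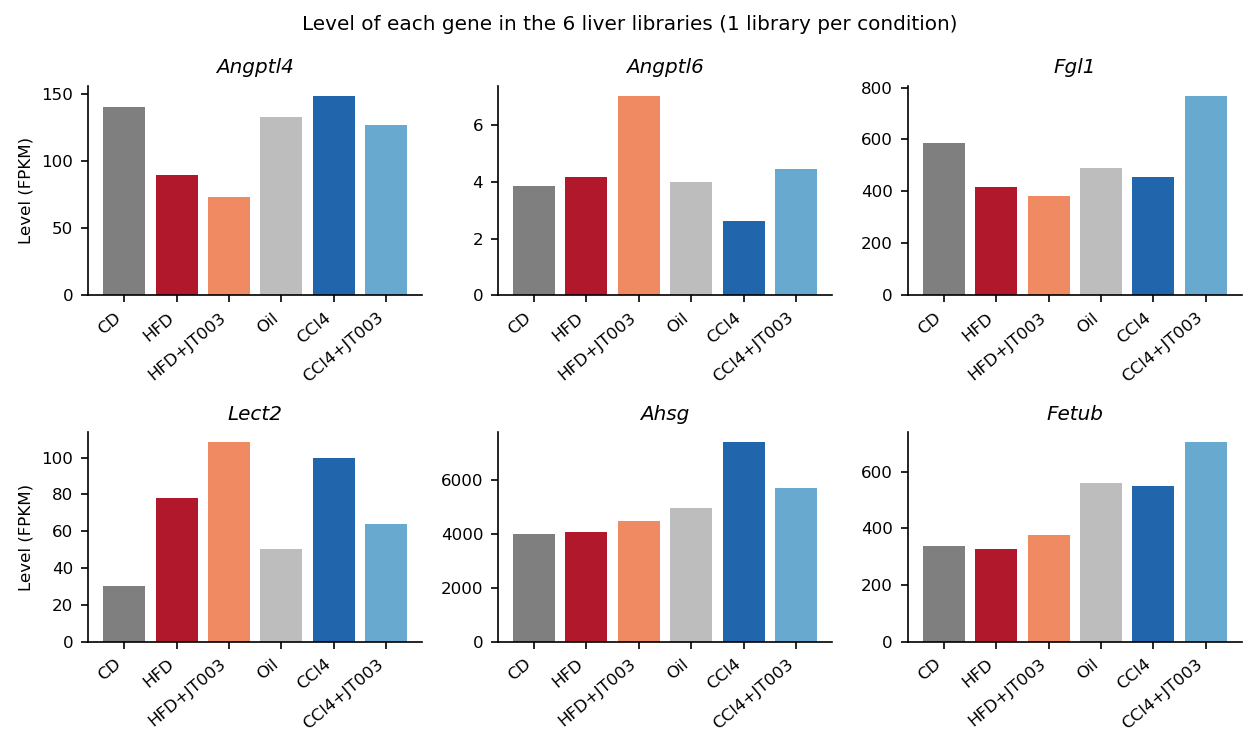
Level in FPKM of the 6 genes in the 6 liver libraries, 1 bar per library and 1 panel per gene, each with its own axis from 0. Lect2 stands at 30.3 FPKM in CD and at 108 in HFD+JT003, while Ahsg is highest in CCl4, at 7390.1 FPKM.

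In each of the 7 comparisons, at most 2 of the 6 genes were past 2-fold. With 6 genes, such counts cannot be set apart from the shares of all genes given beside them. For HFD over CD, 1 of 6 was past 2-fold higher (Lect2) and 0 lower, where 5.94% of all genes tested were higher and 4.15% lower. For HFD+JT003 over CD, which shares the CD library with the comparison before it, 1 was higher (Lect2) and 1 lower (Angptl4), against 6.56% and 4.55%. None was past 2-fold for HFD+JT003 over HFD (2.35% and 2.36% of all genes) or CCl4 over Oil (8.76% and 4.91%). None was past it for CCl4+JT003 over CCl4 (4.64% and 4.24%), CCl4+JT003 over Oil (8.00% and 3.37%) or Oil over CD (5.12% and 5.92%). The controls thus differed past 2-fold in as large a share of genes as HFD and CD did. They belong to courses of 16 weeks (CD) and 6 weeks (Oil), and only Oil mice were injected with corn oil. Age at sampling, injection and model cannot be told apart in Oil over CD. With library totals in place of TMM, the log2 ratios of all genes had a median of 0.125 for HFD over CD (0.004 with TMM), 0.134 for HFD+JT003 over CD (-0.002), 0.245 for CCl4 over Oil (0.014) and 0.321 for CCl4+JT003 over Oil (0.023), and the values here are relative to the TMM centre.

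**Figure D2:**
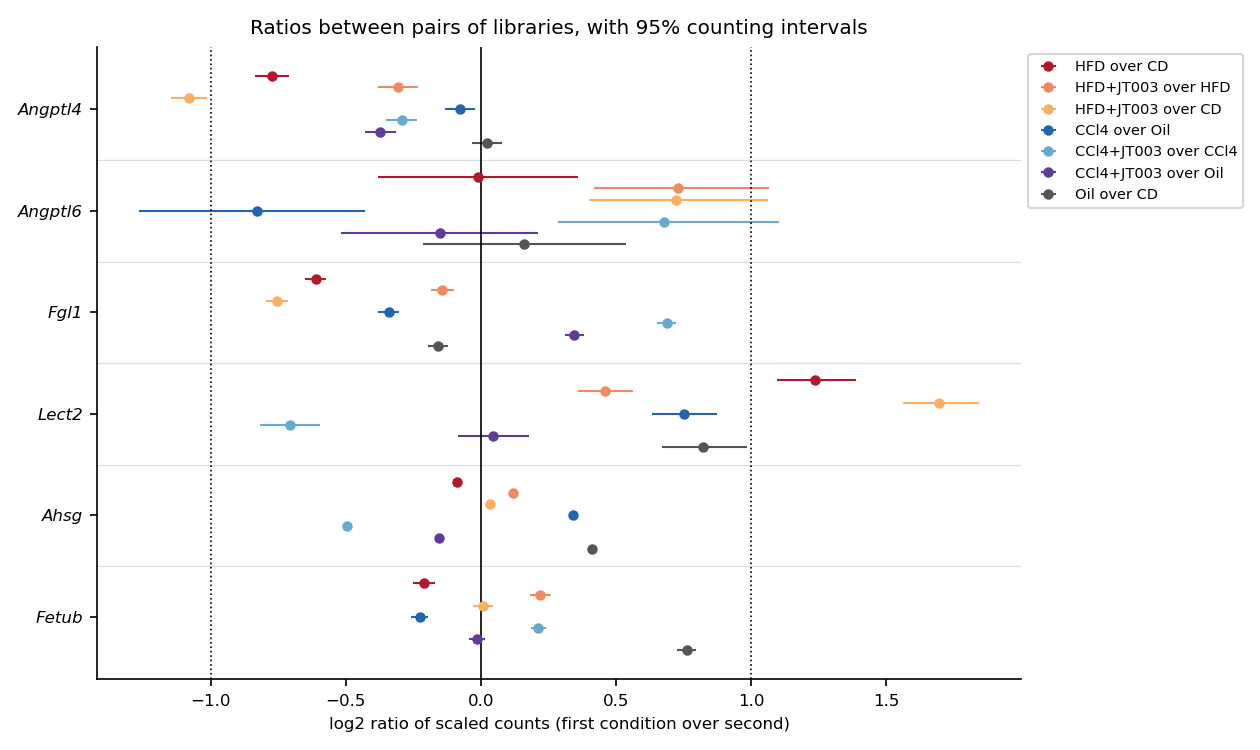
log2 ratio of scaled counts of each gene in 7 comparisons of 2 libraries each, with 95% intervals that cover counting error only; dotted lines mark 2-fold. Lect2 for HFD over CD (1.24) and HFD+JT003 over CD (1.70) and Angptl4 for HFD+JT003 over CD (-1.08) are the points outside the lines.

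Angptl4, the lipase inhibitor, was highest in CCl4 and the 2 control livers and lowest in both high-fat livers. Its FPKM was 139.9 in CD, 89.2 in HFD, 72.8 in HFD+JT003, 133 in Oil, 148 in CCl4 and 127 in CCl4+JT003. HFD was 1.71-fold below CD (log2 ratio -0.77, 95% interval -0.84 to -0.71), and HFD+JT003 was lower still, 2.11-fold below CD (log2 ratio -1.08, -1.15 to -1.01). That last difference lay just past 2-fold and fell short of it when counts were scaled by library totals (log2 ratio -0.94). CCl4 and Oil lay close together, with a log2 ratio of -0.08 that changed sign with library totals. The JT003 livers were below their model livers in both models, with a log2 ratio of -0.31 (-0.38 to -0.23) in the diet model and -0.29 (-0.35 to -0.24) in the fibrosis model. The second value rests on the CCl4 library and was -0.12 against the other CCl4 reads of a pooled column.

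Angptl8 and Angptl2, other angiopoietin-like genes, did not follow Angptl4. Angptl8, a feeding-induced gene of triglyceride handling, stood at 6.39 FPKM in CD, 16.5 in HFD, 18.7 in HFD+JT003, 26.6 in Oil, 63.2 in CCl4 and 36.0 in CCl4+JT003. It was past 2-fold higher for HFD over CD (log2 ratio 1.23), where Angptl4 was lower, and for Oil over CD (2.13), where Angptl4 hardly differed. Angptl2 lay between 1.43 and 5.03 FPKM and was past 2-fold lower in Oil than in CD (log2 ratio -1.14). It fell short of 2-fold with FPKM plus 1 (-0.86).

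**Figure D3:**
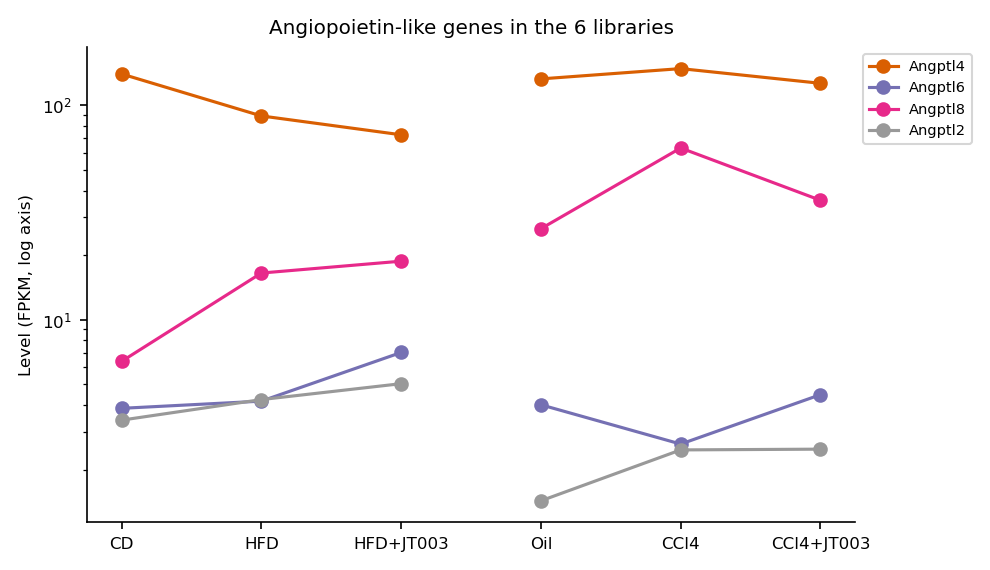
FPKM on a log axis of 4 angiopoietin-like genes across the diet libraries (left) and the fibrosis libraries (right), 1 point per library. Angptl4 goes from 139.9 to 72.8 FPKM across the diet libraries while Angptl8 goes from 6.39 to 18.7, and Angptl8 is highest in CCl4, at 63.2 FPKM.

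The partners of ANGPTL4 in lipoprotein handling differed in their own ways. Lpl, the lipoprotein lipase gene itself, had 354 counts in CD, 546 in HFD and 400 in HFD+JT003, and 296 in Oil, 1438 in CCl4 and 823 in CCl4+JT003. CCl4 was therefore past 2-fold above Oil (log2 ratio 1.98), in a comparison in which Angptl4 hardly differed. Apoa5 and Apoc2, apolipoproteins that assist the lipase, were both past 2-fold lower in HFD than in CD (log2 ratios -1.32 and -1.06), in the same direction as Angptl4. Apoc2 fell short of 2-fold with library totals (-0.94). Apoa5 was higher in HFD+JT003 than in HFD by 0.88 on the log2 scale, whereas Angptl4 was lower. Gpihbp1, which anchors the lipase to capillaries, had 237, 243 and 200 counts in the diet libraries and 206, 128 and 204 in the fibrosis libraries.

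The PPAR-alpha target genes gave the context in which Angptl4 is best known. For HFD over CD, 9 of 15 were past 2-fold lower and 0 higher, with a median log2 ratio of -1.20 against 0.00 over all genes tested. Cyp4a14 and Ehhadh, of omega and peroxisomal fatty acid oxidation, had log2 ratios of -4.89 and -4.67. Pdk4, the kinase that shuts pyruvate dehydrogenase in fasting, had a log2 ratio of -4.18, so that Angptl4 was lower with the list but by less than its median. For HFD+JT003 over HFD, 5 of the 15 were past 2-fold higher and 0 lower, with a median of 0.26. There Cyp4a14 had a log2 ratio of 2.03 and Fgf21, a fasting hepatokine, of 1.44, while Angptl4 stood at -0.31. Angptl4 and the targets past 2-fold thus went in opposite directions with JT003 in the diet model. In the fibrosis model 0 of 15 were past 2-fold higher and 2 lower with JT003 (Fgf21 and Plin2), with a median of -0.23 and Angptl4 at -0.29. That direction of the list rests on the CCl4 library: against the other reads of a pooled CCl4 column (described with Fgl1) 3 of 15 were past 2-fold higher and 0 lower in CCl4+JT003, with a median of 0.18.

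Adipocytes also express Angptl4, and their markers differed between libraries. Cfd, the adipsin gene, had 2 counts in CD, 454 in HFD, 166 in HFD+JT003, 175 in Oil, 2 in CCl4 and 0 in CCl4+JT003, while Adipoq had 0 counts in all 3 diet libraries and 11 in Oil. The summed FPKM of the 5-gene adipocyte list ranged from 0 to 25.5 and was highest in HFD, where Cfd alone gave 25.35. Plin1 and Retn had 1 count each in HFD and 6 and 5 counts in Oil, and Lep was not listed. Apart from Cfd, the listed markers thus had few counts and had the most in Oil. The part of adipocyte RNA in the Angptl4 levels was not tested.

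Angptl6 was higher in the JT003 liver of both models. Its counts were 121 in CD, 128 in HFD and 217 in HFD+JT003, and 122 in Oil, 83 in CCl4 and 135 in CCl4+JT003. The HFD+JT003 library was thus the highest and the CCl4 library the lowest, with the other 4 between 121 and 135 counts. The log2 ratio was 0.73 (0.42 to 1.07) for HFD+JT003 over HFD and 0.68 (0.29 to 1.10) for CCl4+JT003 over CCl4. HFD and CD were within counting error (log2 ratio -0.01, -0.38 to 0.36), and CCl4 was below Oil (log2 ratio -0.83, -1.26 to -0.43). With 83 to 217 counts, these are the least precise values of the 6 genes. In the GENCODE annotation (GRCm38), 265 of the 1582 exonic bases of Angptl6 are shared with A230050P20Rik on the opposite strand. That gene had 653 counts in CD and 1418 in CCl4+JT003, and whether the counting used strand is not given in the sources used here, so the Angptl6 values are uncertain to that extent.

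Fgl1, the fibrinogen-like hepatokine, was lower in both high-fat livers and highest in CCl4+JT003. Its FPKM was 585 in CD, 417 in HFD and 382 in HFD+JT003, and 489 in Oil, 455 in CCl4 and 768 in CCl4+JT003. HFD was 1.53-fold below CD (log2 ratio -0.61, -0.65 to -0.57), and HFD+JT003 was 1.69-fold below CD. CCl4 was below Oil by 0.34 on the log2 scale, and CCl4+JT003 was 1.61-fold above CCl4 (log2 ratio 0.69, 0.65 to 0.72). The fibrinogen chain genes Fga, Fgb and Fgg, its closest relatives in the liver, differed by less between HFD and CD, with log2 ratios of -0.01, -0.17 and -0.11. For HFD+JT003 over HFD they stood at -0.59, -0.71 and -0.59, while Fgl1 was at -0.14. Fgl2, a macrophage and T cell relative of Fgl1, had 55 counts in HFD and 119 in HFD+JT003. It was past 2-fold higher (log2 ratio 1.06, 0.62 to 1.58) but fell short of 2-fold with FPKM plus 1 (0.57).

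Acute phase genes, among which Fgl1 is often counted, differed with JT003 in opposite directions in the 2 models with the CCl4 library, but not with other CCl4 reads. For HFD+JT003 over HFD, 3 of 18 were past 2-fold lower and 0 higher (Lcn2, Saa2 and Saa1, with log2 ratios of -1.53, -1.33 and -1.09), and the median was -0.51. For CCl4+JT003 over CCl4, 6 of 18 were past 2-fold higher and 0 lower, and the median was 0.51. Orm3 and Lcn2 led there with log2 ratios of 2.53 and 1.83, and Saa2 and Saa1 stood at 1.67 and 1.33. Fgl1 was on the same side as the list median in both comparisons (-0.14 and 0.69). The direction in the fibrosis model rests on the CCl4 library. Against the other reads of a pooled CCl4 column (described below), 0 of 18 were past 2-fold higher and 1 lower in CCl4+JT003. The median there was -0.23, on the same side as in the diet model. For HFD over CD the list's median was -0.01, and Fgl1 was at -0.61. The LAG3 receptor gene, Lag3, had 23 to 35 counts in all 6 libraries.

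The Fgl1 difference in the fibrosis model depended on which CCl4 reads were used. A deposited comparison table holds a pooled CCl4 column, given as the authors' value, whose total is 2.97 times that of the CCl4 library. Subtracting the library left 39780549 counts from other CCl4 material, and which libraries were pooled is not stated. In those other reads Fgl1 was 1.88-fold above the CCl4 library, with a log2 ratio of -0.91 for CCl4 over the other reads. Against them CCl4+JT003 was lower for Fgl1 (log2 ratio -0.22 instead of 0.69), and they were above Oil (0.57 instead of -0.34). The acute phase genes differed in the same reads: 7 of 18 were past 2-fold lower in the CCl4 library than in the other reads, and Lcn2, Saa2 and Saa1 were lower in CCl4+JT003 than in those reads, by log2 ratios of -0.88, -0.02 and -0.11. Neutrophil markers were lower in the CCl4 library too, with 4 of 5 past 2-fold, and their part in the Fgl1 difference was not tested.

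**Figure D4:**
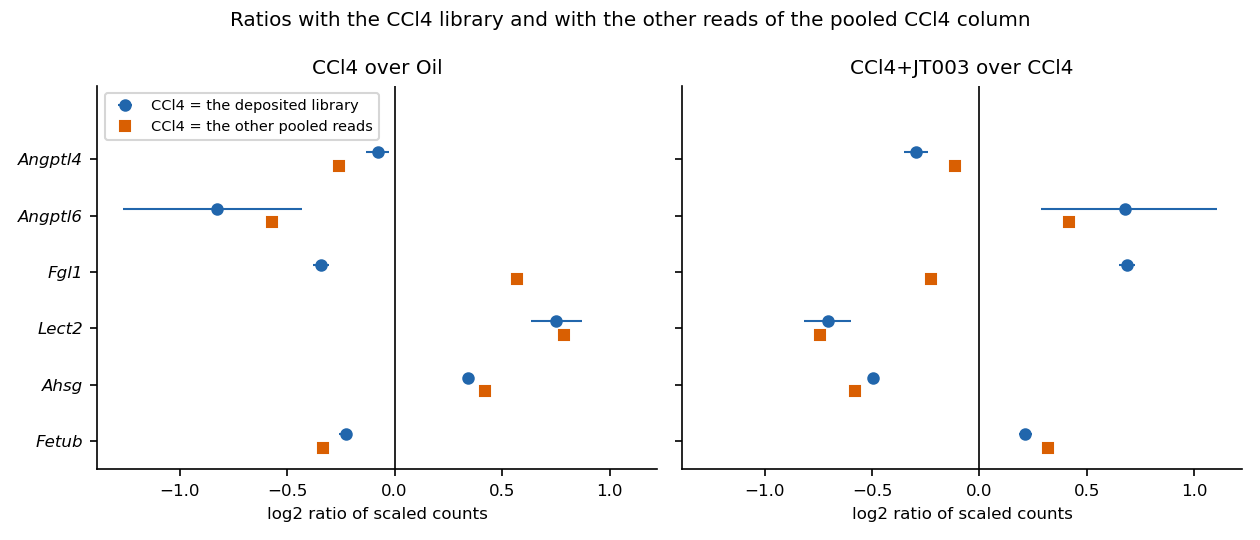
log2 ratio of scaled counts of the 6 genes for CCl4 over Oil (left) and CCl4+JT003 over CCl4 (right), with the deposited CCl4 library (circles, bars are 95% counting intervals) or the other reads of the pooled CCl4 column (squares) as the CCl4 sample. Fgl1 changes sign in both panels (-0.34 to 0.57 and 0.69 to -0.22), and the other 5 genes keep theirs.

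The other 5 genes kept their direction with these reads for both comparisons. For CCl4+JT003 against the other reads the log2 ratio was -0.74 for Lect2, -0.58 for Ahsg, 0.42 for Angptl6, 0.32 for Fetub and -0.12 for Angptl4. None of the 6 genes was past 2-fold between the CCl4 library and the other reads, where 0.646% of all genes were past 2-fold higher and 4.90% lower. None was past 2-fold between CCl4+JT003 and the other reads either, where the shares were 2.49% and 6.52%.

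Lect2, the beta-catenin target, was past 2-fold higher in both high-fat livers and differed with JT003 in opposite directions in the 2 models. Its counts were 532 in CD, 1339 in HFD and 1870 in HFD+JT003, and 850 in Oil, 1748 in CCl4 and 1079 in CCl4+JT003. In FPKM these were 30.3, 77.9 and 108, and 50.2, 99.6 and 63.9. HFD was 2.36-fold above CD (log2 ratio 1.24, 1.09 to 1.39) and HFD+JT003 was 3.24-fold above CD (log2 ratio 1.70, 1.56 to 1.84). CCl4 was 1.68-fold above Oil (log2 ratio 0.75, 0.63 to 0.87). JT003 livers were above their model liver in the diet model (log2 ratio 0.46, 0.36 to 0.56) and below it in the fibrosis model (-0.71, -0.82 to -0.60). CCl4+JT003 and Oil were within counting error with TMM (0.05, -0.09 to 0.18). Across the alternative scalings, prior counts and FPKM, Lect2 for CCl4+JT003 over Oil ranged from 0.01 to 0.35. The 2 controls also differed, with Oil 1.77-fold above CD (log2 ratio 0.82, 0.67 to 0.98).

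The beta-catenin targets of pericentral hepatocytes were mixed in the diet model and mostly lower in the CCl4 liver. For HFD over CD, 2 of 12 were past 2-fold higher (Lgr5 and Rhbg) and 2 lower (Axin2 and Oat), and the median was 0.27. For CCl4 over Oil, 5 of 12 were past 2-fold lower and 0 higher, with a median of -0.80, while Lect2 was at 0.75. Glul, the glutamine synthetase of the last hepatocyte layer before the central vein, had 14862 counts in Oil, 1962 in CCl4 and 2594 in CCl4+JT003. Slc1a2, the glutamate transporter of the same cells, had 3513 counts in Oil and 6 in CCl4. Cyp2e1, which activates CCl4, had 151340 counts in Oil and 39104 in CCl4. Lect2 thus stood higher in CCl4 than in Oil, while Glul, Slc1a2 and Cyp2e1 were fewer in CCl4. Of the 12 genes, 3 were above 0 there like Lect2: Axin2 (log2 ratio 0.66), Cyp1a2 (0.59) and Rnf43 (0.07). For CCl4+JT003 over CCl4 these stood at -0.78, -0.82 and -0.60, beside -0.71 for Lect2, and 5 of the 12 were above 0. In the CCl4+JT003 library Lect2 stood less far above Oil, by an amount that depended on the scaling. For CCl4+JT003 over Oil, 7 of 12 were past 2-fold lower and 0 higher, with a median of -1.20. Lect2 was at 0.05 there with TMM and between 0.01 and 0.35 across the alternatives. The genes whose log2 scaled counts ran closest to Lect2 over the 6 libraries were Serpind1 (heparin cofactor II, Pearson's r = 0.99), Slc25a23 (a mitochondrial carrier, r = 0.98) and Mettl7a1 (r = 0.98). They were chosen as the highest of 8326 genes and are given as a description over 6 libraries that share depth and preparation.

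**Figure D5:**
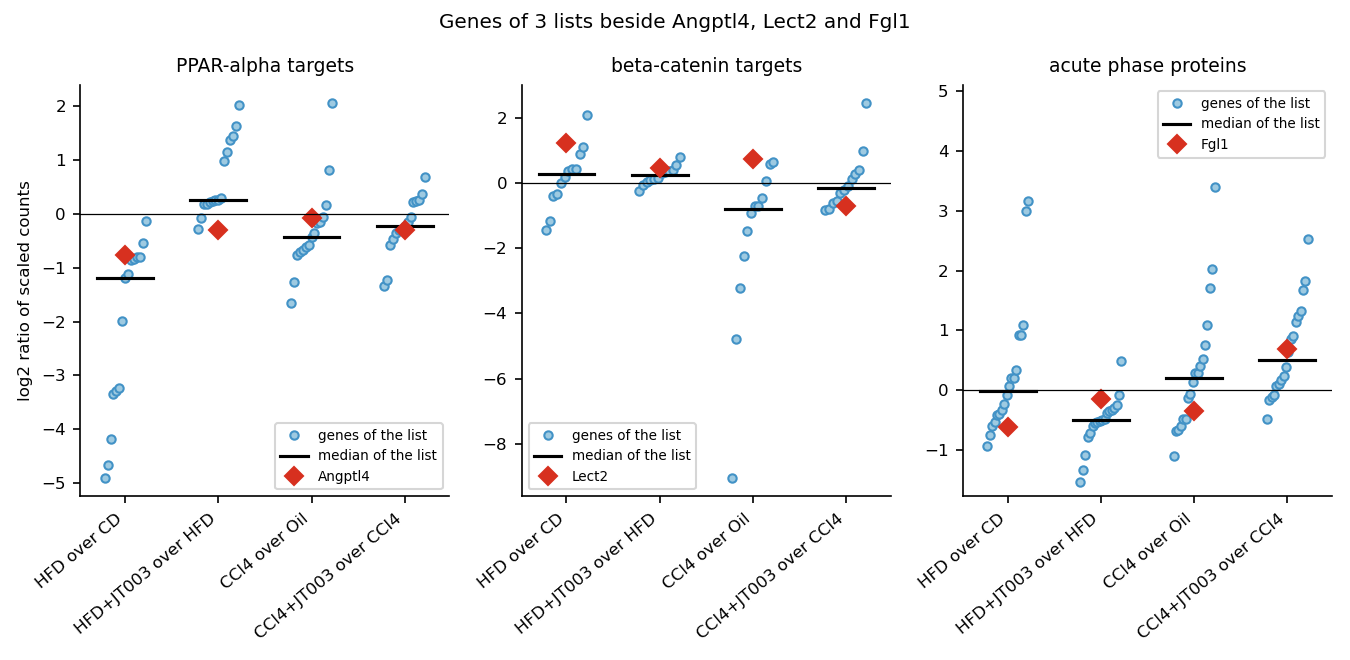
log2 ratios of scaled counts in 4 comparisons for genes of 3 lists (circles, 1 per gene; bar, median) with Angptl4, Lect2 or Fgl1 as a diamond. Angptl4 lies below the PPAR-alpha list for HFD+JT003 over HFD (-0.31 against a median of 0.26), and Lect2 lies above the beta-catenin list for CCl4 over Oil (0.75 against -0.80).

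Ahsg, the fetuin-A gene, differed little between diet libraries and was highest in CCl4. Its FPKM was 3984 in CD, 4082 in HFD and 4481 in HFD+JT003, and 4966 in Oil, 7390.1 in CCl4 and 5688 in CCl4+JT003. HFD and CD differed by a log2 ratio of -0.09, whose sign changed with library totals (0.04). CCl4 was 1.27-fold above Oil (log2 ratio 0.34, 0.33 to 0.35), and CCl4+JT003 was 1.41-fold below CCl4 (log2 ratio -0.50, -0.50 to -0.49). In the diet model the JT003 liver was slightly above HFD (log2 ratio 0.12, 0.11 to 0.13). Its counting intervals are narrow because Ahsg had at least 122095 counts a library, and they say nothing of the spread between mice. Ahsg shares 62 exonic bases with the antisense gene Gm30505, which had 32 to 65 counts.

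Fetub, the neighbour of Ahsg, did not follow it in the fibrosis model. Its FPKM was 339 in CD, 325 in HFD and 378 in HFD+JT003, and 559.9 in Oil, 549 in CCl4 and 702 in CCl4+JT003, so all 3 fibrosis libraries lay above all 3 diet libraries. Oil was 1.69-fold above CD (log2 ratio 0.76, 0.73 to 0.80), a larger distance than any treatment gave. HFD was below CD by 0.21 and CCl4 below Oil by 0.23 on the log2 scale, and the JT003 livers were above their model livers by 0.22 and 0.21. As a result HFD+JT003 and CD, and CCl4+JT003 and Oil, were within counting error with TMM (log2 ratios 0.01 and -0.02). These values depended on the scaling. Across the alternative scalings, prior counts and FPKM, CCl4+JT003 over Oil ranged from -0.05 to 0.33 and changed sign. HFD+JT003 over CD ranged there from 0.01 to 0.16, and CCl4 over Oil from -0.26 to 0.01. For CCl4+JT003 over CCl4, Fetub was at 0.21 and Ahsg at -0.50. Across the 6 libraries the log2 scaled counts of the neighbours had a Pearson's r of 0.74, as a description. Among the other cystatin-like plasma proteins, Hrg (histidine-rich glycoprotein) was at 0.24 for that comparison, Kng1 (kininogen 1) at 0.06 and Kng2 at -0.16, and none of the 6 genes tested on that list was past 2-fold. Ahsg is listed with 4 transcripts and Fetub with 3, and the mean length that enters FPKM ranged over the libraries from 1473 to 1524 bases for Ahsg and from 1482 to 1584 for Fetub.

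The genes that encode targets and receptors of these proteins stayed within 2-fold in the diet model. For HFD over CD, 0 of the 11 receptor genes that passed the count filter were past 2-fold in either direction. Of all genes tested, 5.94% were higher and 4.15% lower, so 0 of 11 is near that share. Sdc4 differed most of the 11, at 0.74 for HFD over CD and -0.65 for HFD+JT003 over HFD. Insr, the insulin receptor that fetuin-A inhibits, had log2 ratios of -0.09 for HFD over CD, 0.22 for HFD+JT003 over HFD, -0.35 for CCl4 over Oil and 0.39 for CCl4+JT003 over CCl4. Tie1 and Met, receptors that LECT2 binds, were at 0.04 and 0.43 for HFD+JT003 over HFD and at 0.31 and 0.35 for CCl4+JT003 over CCl4. Tlr4, which fetuin-A engages with fatty acids, had 19 to 78 counts. Itgb3, an integrin subunit, had 118 counts in Oil and 53 in CCl4 and was past 2-fold lower (log2 ratio -1.41), but stood at 0.03 with the other CCl4 reads.

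Some other hepatokines had larger differences than the 6 genes, while the median log2 ratio of their list was 0.03 for HFD over CD and -0.07 for CCl4+JT003 over CCl4. Fgf21 had 691 counts in CD, 73 in HFD and 205 in HFD+JT003 (log2 ratios -3.30 for HFD over CD and 1.44 for HFD+JT003 over HFD). Igfbp1 and Igfbp2, carriers of insulin-like growth factors, had log2 ratios of -3.24 and -2.04 for HFD over CD and of 1.30 and 1.11 for HFD+JT003 over HFD. Tsku, the tsukushi gene, was past 2-fold higher for HFD over CD (1.54) and CCl4 over Oil (1.32), the same direction as Lect2 in both. Gdf15, a stress hormone, was past 2-fold higher for HFD over CD (1.39) and CCl4 over Oil (2.22). Hamp, the iron hormone hepcidin, was past 2-fold higher with JT003 in both models (1.33 and 1.71). Of the 19 genes of this list that were tested, 5 were past 2-fold higher and 2 lower for HFD+JT003 over HFD, and 1 higher and 1 lower for CCl4+JT003 over CCl4.

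Clock genes differed strongly between libraries of both models and are given because several liver secretory genes follow the day. For HFD over CD, 3 of 12 were past 2-fold higher and 2 lower, with Per2 at 2.27 and Arntl at -2.13. For HFD+JT003 over CD, 5 were higher and 3 lower. Lect2 was past 2-fold in both of these pairs and Angptl4 in the second. For CCl4 over Oil, 2 were higher and 5 lower. For CCl4+JT003 over CCl4, 6 of 12 were past 2-fold higher and 2 lower, with Dbp at 4.29 and Arntl at -3.44. For HFD+JT003 over HFD, 1 was higher and 3 lower. Lect2, Fgl1 and Ahsg differed in these JT003 pairs, and the part of the sampling hour was not tested in any pair.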

How the data were processed

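Liver RNA of 6 conditions was sequenced on the BGISEQ-500, 1 library per condition. The submitters' processing notes name HISAT, Bowtie2 and RSEM without versions or roles, and the build mm9. Per the file headers, the authors deposited for each gene an expected count, which need not be whole where reads are shared, and an FPKM value. The authors' fold changes and p-values in 4 comparison tables were not used, nor were 7 columns that belong to no mapped sample. Of those tables, the pooled CCl4 count column was used as the authors' value.

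Expected counts were rounded and scaled by TMM (edgeR 4.0.16, R 4.3.3), computed within each model's 3 libraries and, for Oil over CD, within all 6. Rows without a gene name, at most 0.00024% of counts, were left out. Genes with at least 10 counts in 1 of the 2 libraries were kept, 2 prior counts were added, and Clopper-Pearson 95% intervals were computed; they cover counting error only. The steps were tested on simulated data. Library totals, DESeq2 1.42.0 size factors, other filters and prior counts, and FPKM plus 1 or 0.1 were alternatives. Up to 4 genes per list and comparison past 2-fold with at least 100 counts, and 3 most alike genes per gene, were named, besides family, receptor and lipase partner genes; further list genes (such as Fga, Hrg, Cfd, Igfbp2 and Gdf15) were named after their values were seen. The genes and the lists were chosen with earlier results of these data known, and motifs after the values were seen. 1 item is not reported here.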

Additional observations from a re-analysis of the deposited data

Results flagged for a closer look

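JT003 differences lay on opposite sides of 0 in the 2 models for 3 genes, and the difference between models was not tested, since each condition has 1 library. Diet minus fibrosis log2 ratios were 1.165 for Lect2 (0.46 and -0.71), 0.615 for Ahsg (0.12 and -0.50) and -0.83 for Fgl1 (-0.14 and 0.69). The Fgl1 value rests on the CCl4 library: with the other reads of the pooled CCl4 column its fibrosis ratio was -0.22, on the same side as in the diet model. For the disease models themselves, Ahsg was at -0.09 for HFD over CD and at 0.34 for CCl4 over Oil, a difference of -0.43 that was not tested.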

How the results depend on the processing

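Of 42 ratios of the 6 genes, 34 kept their sign and 41 their side of 2-fold. The alternatives were library totals, DESeq2 size factors, TMM over another set of libraries, another prior count and FPKM. Count filters do not enter the ratio of a gene and bear only on the numbers of genes below. The exception to the side was Angptl4 for HFD+JT003 over CD: the genes past 2-fold there went from 2 to 1 with library totals, FPKM plus 1 and FPKM plus 0.1. Of 215 other named ratios, all kept their sign under these and 186 their side. With at least 100 counts, genes past 2-fold numbered 695 (HFD over CD), 188 (HFD+JT003 over HFD), 761 (HFD+JT003 over CD), 831 (CCl4 over Oil), 531 (CCl4+JT003 over CCl4), 556 (CCl4+JT003 over Oil) and 634 (Oil over CD), against 1345, 633, 1489, 1860, 1224, 1562 and 1469. With FPKM plus 1 they numbered 542, 150, 586, 763, 391, 511 and 422. With at least 1 count they numbered 1283 (HFD+JT003 over HFD), 1884 (CCl4+JT003 over CCl4) and 2267 (Oil over CD). With the exact test of the reads they numbered 278 (HFD+JT003 over HFD), 1237 (CCl4 over Oil), 768 (CCl4+JT003 over CCl4), 859 (CCl4+JT003 over Oil) and 921 (Oil over CD). The stricter filters test fewer genes by construction, and the cause of the other changes was not tested. With library totals the share of calls that were higher went from 58.9% to 69.1% (HFD over CD), 59.0% to 70.1% (HFD+JT003 over CD), 64.1% to 78.7% (CCl4 over Oil) and 70.4% to 86.8% (CCl4+JT003 over Oil). With the other CCl4 reads, Fgl1 went to 0.57 for CCl4 over Oil and -0.22 for CCl4+JT003 over CCl4, Itgb3 for CCl4 over Oil to 0.031, and Lcn2, Saa1 and Saa2 for CCl4+JT003 over CCl4 to -0.88, -0.11 and -0.024. No paired analysis was possible because each condition has 1 library. Depth limits Angptl6, at 83 to 217 counts, and single libraries limit all comparisons, which compare libraries and not conditions.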

Other observations

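The nearest genes to the other 5 were chosen like those of Lect2, by the highest Pearson's r of log2 scaled counts over 6 libraries. They were taken from 8326 genes and are given as a description. Apof (apolipoprotein F) and Gltpd2 ran with Angptl4 (r = 0.999 and 0.998), Uri1 and Utp18 with Angptl6 (0.992 and 0.989), and Pik3r2 with Ahsg (0.997). Pop5 and Atp5f1 ran with Fetub (0.996 and 0.995). Fgl1 had no gene as near, with Tbce the highest at 0.96. Among pairs of the 6 genes, Fgl1 and Lect2 had r = -0.82, and Fgl1 and Ahsg 0.04.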
